A study of Homo sapiens with 14 samples.

Results

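The 51 interferon-stimulated genes described here are a list of named genes. The rule that picks them names no measured value, but the list was chosen with earlier results of these data known. All 51 were among the 22410 genes of the deposited tables, and each gene was read from the transcript with most fragments, by its mean FPM (fragments scaled to the library total) over the 14 libraries. Enough fragments for a test were found for 43 of the 51, among 16418 genes tested in all. The list holds 4 transcription factors, 11 antiviral RNA-binding and nucleotide effectors, 7 membrane and GTPase restriction factors, 6 genes of the ISG15 pathway, 6 of antigen presentation, 5 PARP and DTX3L genes, 2 TRIM ligases and 10 other induced genes.

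Polyadenylated RNA was sequenced from 14 libraries of 293 Flip-In T-REx cells (human embryonic kidney, with a single prepared site for a transgene) in 7 groups of 2 libraries. The groups were SA1Q+gRNA and SA1Q (the SNAP-ADAR1Q gene with and without guide RNA), SA1+gRNA (SNAP-ADAR1 with guide), SA2Q+gRNA and SA2Q (the SNAP-ADAR2Q gene with and without guide), SA2+gRNA (SNAP-ADAR2 with guide) and ctrl (empty vector, no guide named). In a SNAP-ADAR, the deaminase domain of ADAR or ADARB1 is fused to a SNAP tag that bonds to a guide RNA, and Q marks a glutamine in place of a glutamate that raises the activity of the enzyme. Libraries of SA1 and SA2 without guide were not analysed here, and the sources used here do not give the guide's target, any induction of the transgene or whether a line is 1 clone.

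Interferons are secreted when a cell senses viral nucleic acid. They bind receptors whose kinases activate STAT proteins, and a complex that holds STAT2 and IRF9 switches on genes whose promoters hold the interferon-stimulated response element, or ISRE. ADAR is itself interferon-induced, and its editing of endogenous double-stranded RNA is known to keep the sensor MDA5 from starting this response. Human embryonic kidney cells of this kind carry the adenoviral E1A gene, whose protein is known to blunt it.

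Libraries held 43 to 130.1 M fragments, and 93.3% to 95.02% of them fell in the genes analysed. The labels were checked on the enzyme parents: ADAR averaged 1092 ± 10.3 CPM in SA1Q and 324 ± 23.3 CPM in ctrl, and ADARB1 averaged 1010 ± 99.3 CPM in SA2Q and 33.3 ± 5.59 CPM in ctrl (TMM-scaled CPM; SD, n = 2 each). Features of single libraries precede the results. SA1+gRNA replicate 2 held even counts only. SA1Q+gRNA replicate 1 and ctrl replicate 1 stood apart from the others on the first principal component of all genes (-43.91 and -39.65, against 0.30 to 13.72 in the others). RNA45SN5, a ribosomal RNA precursor, ran from 2372 CPM in SA1+gRNA replicate 2 to 11992 CPM in SA1Q+gRNA replicate 1. Its part in the results was not tested. The 293 markers VIM and KRT8 were abundant in every library, at 958 to 1285 and 231 to 349 CPM, as was KRT18 at 115 to 147 CPM, while NEFM, PAX2 and LHX1 of the same list lay at 0.815 to 1.78, 2.32 to 5.25 and 2.08 to 3.70 CPM. PTPRC, the defining blood-cell marker, had 0.149 to 0.406 CPM.

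Per unit of transcript length, the list spread from abundant transcripts to genes with a handful of fragments. The mean FPKM (fragments scaled to transcript length and library total) over the 14 libraries was above 10 for 9 genes, from 1 to 10 for 20, and under 1 for 22, of which 12 lay under 0.1. The most abundant were B2M and HLA-C, which form class I antigen-presenting molecules (mean FPKM 196 and 180), LGALS3BP, a secreted galectin-binding glycoprotein (125), and HLA-B (59.7). TRIM25, a ubiquitin ligase of the RIG-I pathway (15.5), USP18, which removes ISG15 from proteins (15.2), IFITM2 (14.2), TAP1, a subunit of the peptide transporter (11.4), and HERC5, the main ISG15 ligase (10.2), followed. HLA-B and HLA-C resemble each other, USP18 has a near-identical copy in USP41, and TAP1 and PSMB8 overlap an antisense gene, so their levels are uncertain.

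The genes with too few fragments for a test were 8 that are known as strongly induced: OAS1, OAS2, OASL, RSAD2, MX2, IFI44, SAMD9L and XAF1. OAS1 and OAS2 make oligoadenylates on binding double-stranded RNA, OASL is their relative, RSAD2 encodes viperin, and MX2 is a dynamin-like GTPase. Their highest count in any library was 18, for OASL, and XAF1 had 5 fragments over all 14 libraries. IFI44L passed the filter with 1 to 23 fragments per library. The 21 interferon genes themselves reached at most 7 fragments in any library, IFNB1 at most 2, and none could be tested. Of the receptor and signalling genes, IFNAR1, a subunit of the type I receptor, lay at 45.0 to 65.4 CPM, and JAK1, a receptor kinase, at 59.9 to 80.2 CPM.

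**Figure D1:**
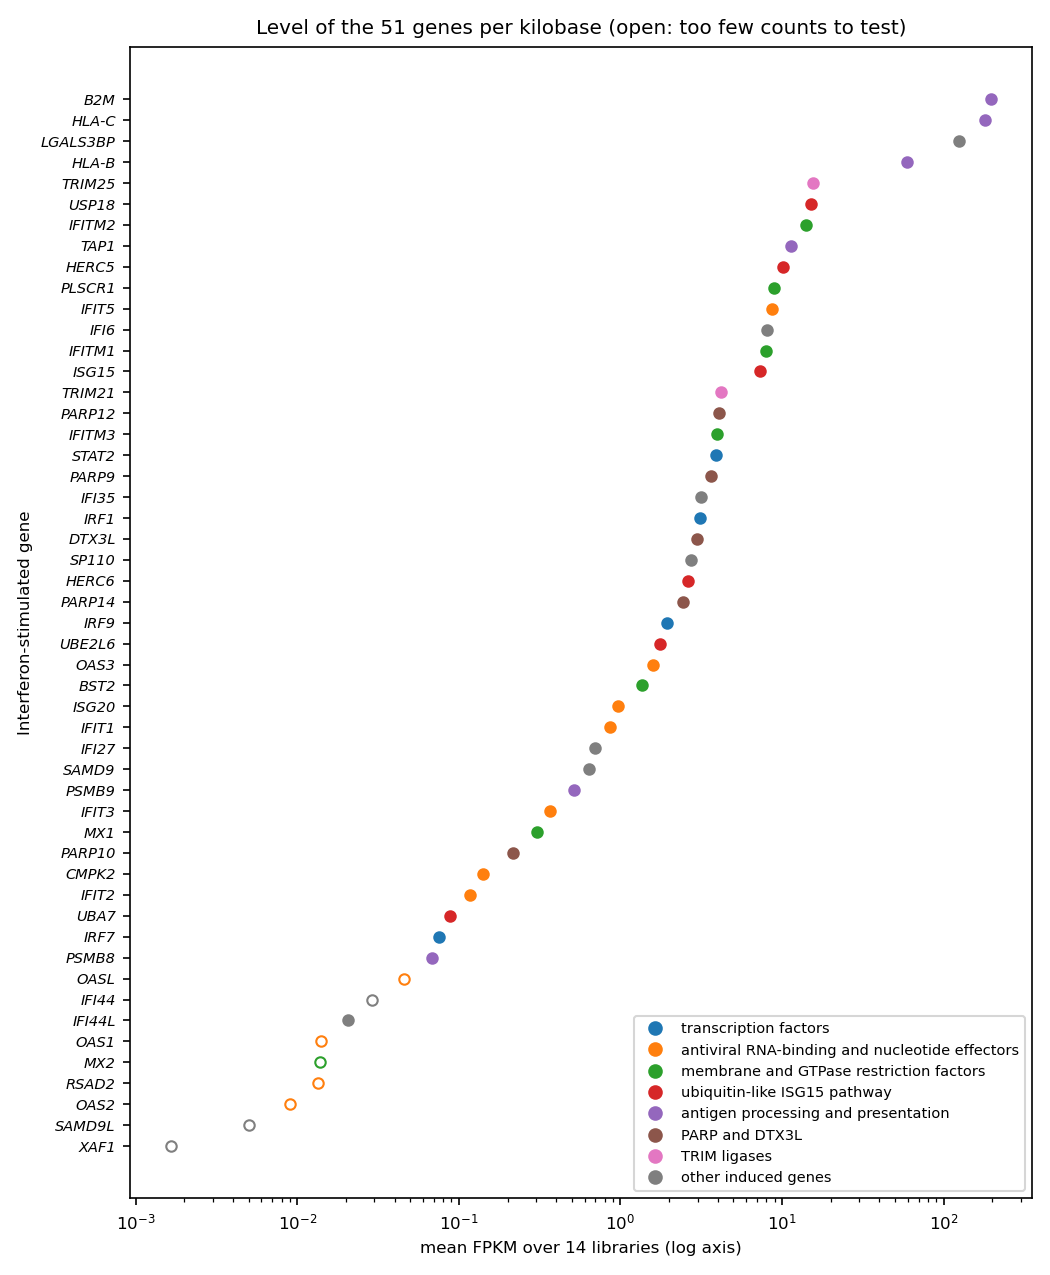
Mean FPKM over 14 libraries for each of the 51 interferon-stimulated genes, ordered from high to low on a log axis and coloured by role; open points mark the 8 genes with too few counts to test. B2M (196), HLA-C (180) and LGALS3BP (125) stand highest, and the OAS, MX2 and RSAD2 points lie far to the left.

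The 5 promoters below belong to genes called lower in the SA1Q line than in the SA2Q line, and show how the ISRE core is placed in them. Sequences are from RefSeq, build GRCh38.p14, on the strand of the gene, from 250 bases before to 50 bases after the start. Capitals mark the ISRE core as searched, GAAA, any 2 bases, then GAAA, which reads TTTC, any 2 bases, TTTC where the match is on the other strand. The windows are chr19:17405581-17405880 on the minus strand for BST2, chr11:313790-314089 on the plus strand for IFITM1, chr11:320811-321110 on the minus strand for IFITM3, chr10:89392373-89392672 on the plus strand for IFIT1 and chr17:43006534-43006833 on the plus strand for IFI35.
BST2: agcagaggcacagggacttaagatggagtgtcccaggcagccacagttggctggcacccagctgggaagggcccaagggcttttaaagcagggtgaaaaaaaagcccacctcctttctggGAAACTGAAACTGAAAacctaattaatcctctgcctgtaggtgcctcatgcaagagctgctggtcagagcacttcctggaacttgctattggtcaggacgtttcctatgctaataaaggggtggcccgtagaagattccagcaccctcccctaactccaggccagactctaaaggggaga
IFITM1: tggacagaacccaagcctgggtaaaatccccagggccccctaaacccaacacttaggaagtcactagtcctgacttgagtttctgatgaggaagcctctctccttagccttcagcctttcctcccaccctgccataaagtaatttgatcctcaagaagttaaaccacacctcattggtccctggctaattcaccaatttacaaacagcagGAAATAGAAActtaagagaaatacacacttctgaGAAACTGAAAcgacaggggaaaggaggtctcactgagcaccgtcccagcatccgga
IFITM3: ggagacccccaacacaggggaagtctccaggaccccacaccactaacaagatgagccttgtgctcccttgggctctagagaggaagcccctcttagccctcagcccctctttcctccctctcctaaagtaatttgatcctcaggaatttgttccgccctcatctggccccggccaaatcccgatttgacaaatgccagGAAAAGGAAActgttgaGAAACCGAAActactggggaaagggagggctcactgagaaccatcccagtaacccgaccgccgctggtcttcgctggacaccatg
IFIT1: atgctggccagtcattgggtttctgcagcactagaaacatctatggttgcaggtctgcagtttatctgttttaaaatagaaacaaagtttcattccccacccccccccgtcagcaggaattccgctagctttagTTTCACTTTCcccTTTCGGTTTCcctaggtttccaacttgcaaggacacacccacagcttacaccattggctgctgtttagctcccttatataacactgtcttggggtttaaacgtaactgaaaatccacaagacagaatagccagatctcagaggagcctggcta
IFI35: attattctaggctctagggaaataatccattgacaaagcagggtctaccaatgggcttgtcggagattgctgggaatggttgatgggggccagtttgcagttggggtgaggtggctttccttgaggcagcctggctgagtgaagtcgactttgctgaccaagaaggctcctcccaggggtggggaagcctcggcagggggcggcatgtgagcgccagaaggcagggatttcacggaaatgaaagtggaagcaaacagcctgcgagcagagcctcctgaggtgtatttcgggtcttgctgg
In BST2, 2 overlapping matches begin 130 and 124 bases before the start. In IFITM1 they begin 40 and 6 bases before it, in IFITM3 52 and 35, and in IFIT1 116 and 103, while the IFI35 window held none. Among the members with a window, the ISRE core on either strand occurred in 25 of 42 (59.5%), against 997 of all 27305 windows (3.65%). The STAT motif TTCNNNGAA occurred in 12 of 42 (28.6%), against 7.94% of all windows, with 2 matches in BST2 and 1 each in IFITM1 and IFI35. The ISRE core was also in the windows of OAS3 (143 and 12 bases before the start) and LGALS3BP (58 bases before it), and 24 of the 37 tested members with a window held it. A match describes these letters and is not evidence of a bound site.

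As a group, the members lay lowest in the SA1Q line and highest in ctrl. For each tested member, its log2 CPM in a library was set against its mean over all libraries, and the median of these differences was taken over the 43 genes. It was -0.15 and -0.10 in SA1Q+gRNA, -0.05 and -0.13 in SA1Q, 0.04 and 0.04 in SA1+gRNA, 0.05 and 0.05 in SA2Q+gRNA, 0.01 and 0.02 in SA2Q, 0.04 and 0.03 in SA2+gRNA, and 0.18 and 0.14 in ctrl. The 4 SA1Q-line libraries lay below the other 10, the 2 ctrl libraries lay above all others, and the median of all tested genes stayed between -0.003 and 0.008. In the SA1Q line 11 to 16 of the 43 genes were above their own mean, in the SA2Q line 23 to 27, and in ctrl 31 and 32. In bulk RNA, fewer cells expressing a gene and less RNA per cell cannot be told apart.

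**Figure D2:**
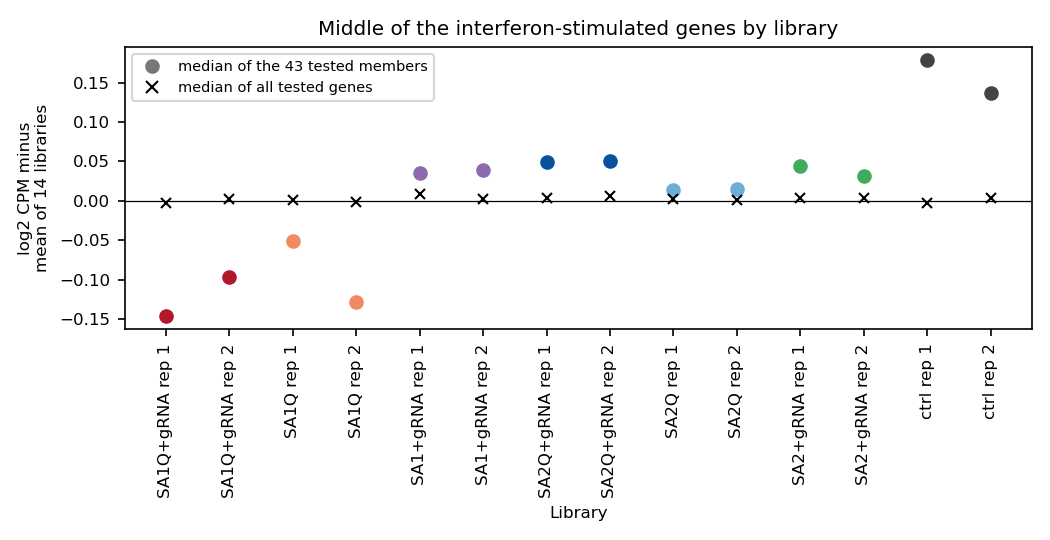
Median over the 43 tested interferon-stimulated genes of log2 CPM minus the gene's mean over 14 libraries, by library (circles), with the same median over all tested genes (crosses). The 4 SA1Q-line libraries lie from -0.146 to -0.051, and the 2 ctrl libraries at 0.137 and 0.179.

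**Figure D3:**
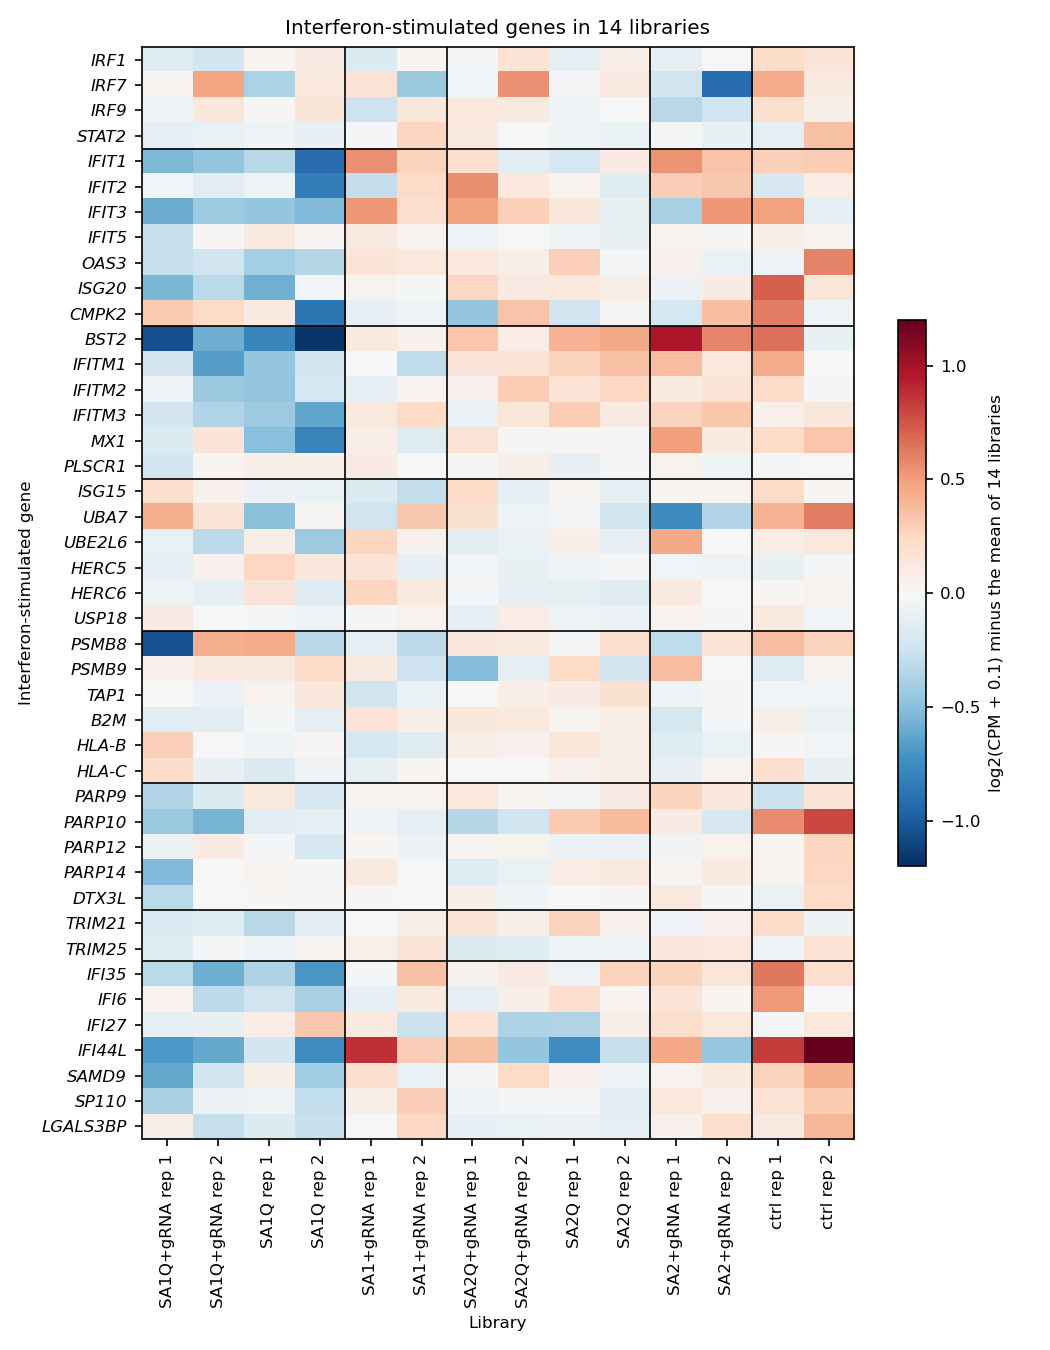
Level of each of the 43 tested genes by library as log2(CPM + 0.1) minus the mean of the 14 libraries, with genes in rows grouped by role and libraries in columns. The SA1Q+gRNA and SA1Q columns are blue for BST2, IFITM3, IFIT1, IFIT3, OAS3 and IFI35.

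Set against the SA2Q line, the SA1Q line had lower transcripts of 4 of the 6 tested membrane and GTPase restriction factors. These were BST2 and all 3 IFITM genes on the list. The groups compared hold no ctrl library, but the filter, scaling and spread behind each p-value come from all 14 libraries. IFIT1 and IFI35 were also called lower, and no member was called higher. PLSCR1 and MX1, the other tested restriction factors, were not called. Called here means an adjusted p under 0.05 in edgeR's quasi-likelihood test over all 16418 genes. The called members were 6 of 43 (14%), all lower, where 2.75% of all tested genes were called and 1.72% were called lower. Of the 43 genes 31 had a log2 change below 0, against 48.8% of all genes, with a median of -0.11 (-0.20 without SA1Q replicate 1, -0.18 without SA1Q+gRNA replicate 2 and -0.07 on log2(FPKM + 1)), and 14 had an unadjusted p under 0.05 (16.8% of all genes). The comparison pools SA1Q with SA1Q+gRNA and SA2Q with SA2Q+gRNA. Each side is 1 line, so the enzyme and other differences between the lines cannot be told apart.

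BST2, or tetherin, holds budding virus particles at the cell surface; on hg19 its transcript lies on chromosome 19 from 17513748 to 17516457, minus strand. Its level was 0.592 and 0.854 CPM in SA1Q+gRNA, 0.731 and 0.536 in SA1Q, 1.46 and 1.39 in SA1+gRNA, 1.71 and 1.42 in SA2Q+gRNA, 1.82 and 1.87 in SA2Q, 2.71 and 2.05 in SA2+gRNA, and 2.17 and 1.25 in ctrl. The 4 SA1Q-line libraries were below all 10 others, with 23 to 52 fragments each, and the ctrl pair was the most spread. The SA1Q line averaged 0.678 CPM and the SA2Q line 1.70 CPM, a log2 change of -1.30 (SE 0.21, 95% interval -1.80 to -0.81; adjusted p = 0.00521, edgeR). BST2 in SA1+gRNA and SA2+gRNA had the values 1.42 ± 0.049 and 2.38 ± 0.467 CPM (SD, n = 2 each), a difference of -0.73 on the log2 scale that was not called (adjusted p = 0.913, edgeR).

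The IFITM proteins sit in membranes and hinder the fusion of virus with the cell. IFITM1 had 5.02 and 3.71 CPM in SA1Q+gRNA, 4.26 and 5.06 in SA1Q, 5.94 and 4.76 in SA1+gRNA, 6.60 and 6.64 in SA2Q+gRNA, 7.17 and 7.55 in SA2Q, 7.67 and 6.48 in SA2+gRNA, and 8.07 and 5.93 in ctrl. The SA1Q line lay below the SA2Q line, SA2+gRNA and ctrl without overlap, and overlapped SA1+gRNA. IFITM2 had 10.4 and 7.93 CPM in SA1Q+gRNA, 7.78 and 9.33 in SA1Q, 10.1 and 11.1 in SA1+gRNA, 11.2 and 13.4 in SA2Q+gRNA, 12.2 and 12.9 in SA2Q, 11.7 and 12.1 in SA2+gRNA, and 12.8 and 10.7 in ctrl, again overlapping SA1+gRNA only. IFITM3 had 2.34 and 2.10 CPM in SA1Q+gRNA, 1.99 and 1.74 in SA1Q, 2.99 and 3.25 in SA1+gRNA, 2.60 and 3.05 in SA2Q+gRNA, 3.41 and 2.94 in SA2Q, 3.34 and 3.46 in SA2+gRNA, and 2.87 and 3.01 in ctrl. For IFITM3 the 4 SA1Q-line libraries were below the other 10. The log2 changes of the SA1Q line over the SA2Q line were -0.64 for IFITM1 (SE 0.13, adjusted p = 0.0179), -0.50 for IFITM2 (SE 0.10, adjusted p = 0.0203) and -0.56 for IFITM3 (SE 0.12, adjusted p = 0.0220; edgeR). These 3 genes lie close together on chromosome 11 (IFITM2 from 308107 to 309410 and IFITM1 from 313991 to 315272 on the plus strand, IFITM3 from 319673 to 320914 on the minus strand, hg19) and resemble each other in sequence, and the treatment of fragments with several matches is not stated.

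IFIT1 binds viral RNA whose cap lacks a methyl group (chromosome 10, 91152303 to 91166244, plus strand, hg19). It had 2.68 and 2.81 CPM in SA1Q+gRNA, 3.11 and 2.04 in SA1Q, 5.81 and 4.77 in SA1+gRNA, 4.58 and 3.58 in SA2Q+gRNA, 3.41 and 4.23 in SA2Q, 5.77 and 5.03 in SA2+gRNA, and 4.82 and 4.89 in ctrl. All 4 SA1Q-line libraries were below the other 10, with the SA2Q line between them and the rest on average, and its log2 change against the SA2Q line was -0.57 (SE 0.14, adjusted p = 0.0476, edgeR). IFI35 encodes a leucine-zipper protein of the interferon response (chromosome 17, 41158742 to 41166476, plus strand, hg19). It had 3.22 and 2.68 CPM in SA1Q+gRNA, 3.11 and 2.47 in SA1Q, 4.02 and 5.20 in SA1+gRNA, 4.20 and 4.39 in SA2Q+gRNA, 3.89 and 4.94 in SA2Q, 4.92 and 4.50 in SA2+gRNA, and 6.35 and 4.70 in ctrl. Here too the SA1Q line was below all other libraries, with a log2 change of -0.61 against the SA2Q line (SE 0.14, adjusted p = 0.0326, edgeR). Leaving out 1 of the 8 libraries at a time leaves its group with 1 library. Fewer members then passed. The share of all genes called moved too, down in most of these fits and up in the others. The log2 changes ran from -1.463 to -1.198 for BST2, -0.7484 to -0.5324 for IFITM1 and -0.5941 to -0.4021 for IFITM2. For IFITM3 they ran from -0.6073 to -0.4961, for IFI35 from -0.6974 to -0.5125 and for IFIT1 from -0.7381 to -0.4328. Without both libraries that stand apart, 10 of 43 members passed (23.3%), all lower and with the 6 named here among them, while the share of all genes called was 11.8%, against 2.75% with every library.

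**Figure D4:**
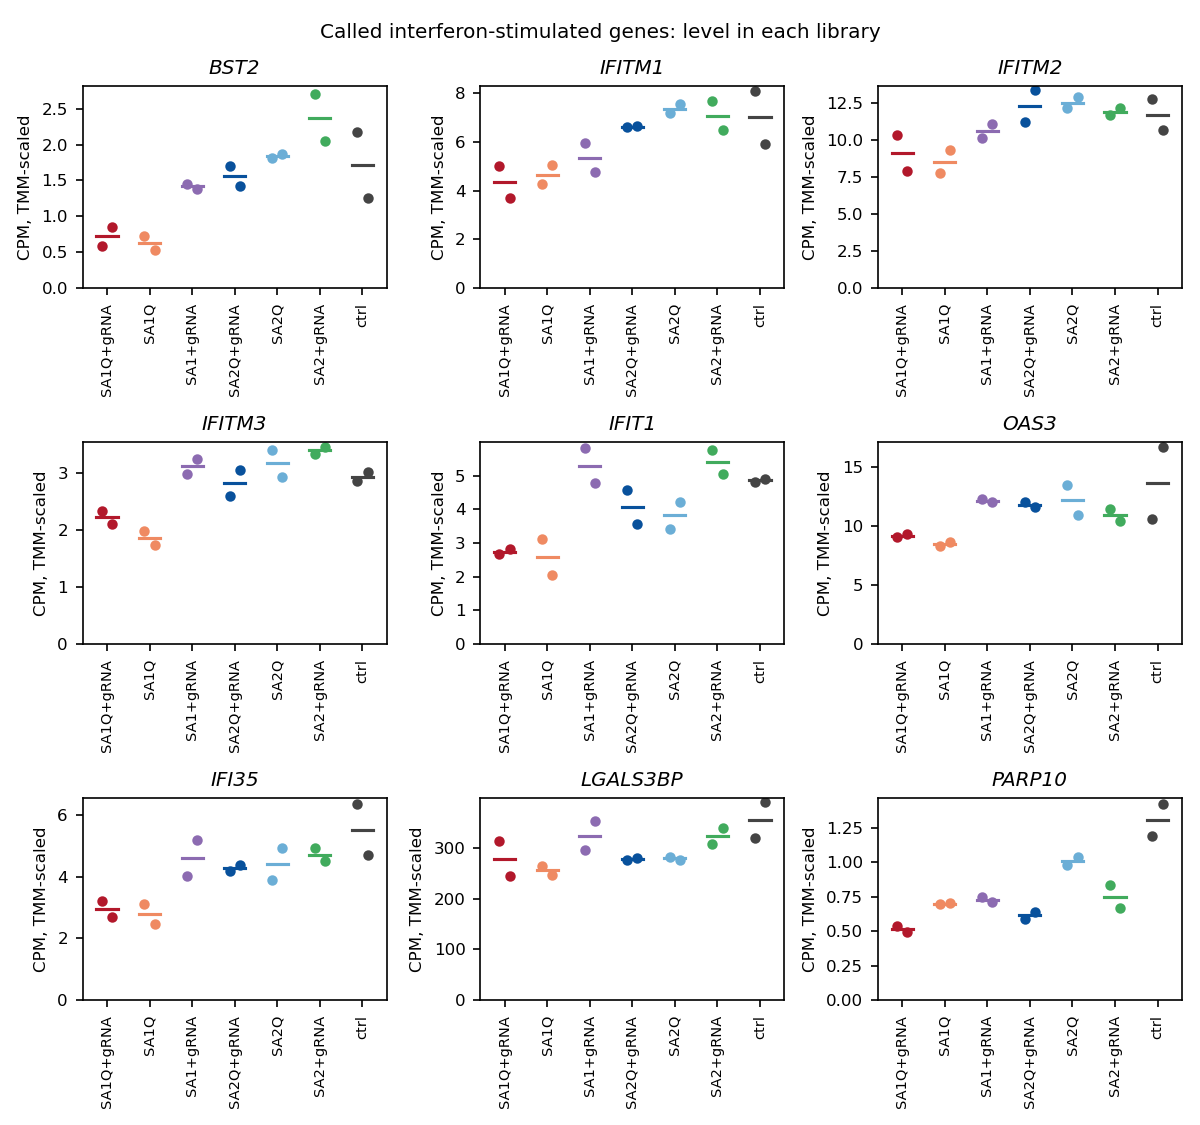
TMM-scaled CPM of the 9 interferon-stimulated genes called in any comparison, with 1 point per library, the group mean as a bar and groups from SA1Q+gRNA at the left to ctrl at the right. BST2 lies from 0.536 to 0.854 CPM in the SA1Q line and from 1.25 to 2.71 CPM elsewhere.

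The comparison of SA1Q with ctrl asks how the line with the more active ADAR deaminase differed from cells with an empty vector. These are separate lines, so the enzyme and other differences between the lines cannot be told apart. IFI35, BST2 and IFIT1 were lower in SA1Q, as were OAS3 and LGALS3BP, and no member was higher. The called members were 5 of 43 (11.6%), against 2.8% of all tested genes called and 1.74% called lower. The list's median log2 change was -0.32 (-0.20 without SA1Q replicate 2 and -0.09 on log2(FPKM + 1)) and that of all genes 0.00; 36 of 43 were below 0 (49.9% of all genes), and 20 of 43 had an unadjusted p under 0.05 (21.2% of all genes). By role, 2 of 7 tested RNA-binding and nucleotide effectors, 1 of 6 restriction factors and 2 of 7 other induced genes passed, with medians of -0.71, -0.62 and -0.51. None of the tested transcription factors, ISG15-pathway genes, antigen-presentation genes, PARP and DTX3L genes or TRIM ligases passed, with medians from -0.20 to -0.03.

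IFI35 was the member with the smallest p here, at a log2 change of -0.98 (SE 0.20, adjusted p = 0.0204, edgeR), followed by BST2 at -1.40 (SE 0.30, adjusted p = 0.0278) and IFIT1 at -0.91 (SE 0.20, adjusted p = 0.0304). OAS3, an oligoadenylate synthetase (chromosome 12, 113376249 to 113411054, plus strand, hg19), had 9.08 and 9.31 CPM in SA1Q+gRNA, 8.29 and 8.69 in SA1Q, 12.3 and 12.02 in SA1+gRNA, 12.01 and 11.6 in SA2Q+gRNA, 13.5 and 10.9 in SA2Q, 11.4 and 10.4 in SA2+gRNA, and 10.6 and 16.7 in ctrl. The SA1Q-line libraries were below all others, and ctrl replicate 2 was the highest; the log2 change of SA1Q over ctrl was -0.69 (SE 0.17, adjusted p = 0.0401, edgeR), and -0.32 without ctrl replicate 2 (adjusted p = 0.175). LGALS3BP had 314 and 244 CPM in SA1Q+gRNA, 265 and 246 in SA1Q, 295 and 353 in SA1+gRNA, 277 and 281 in SA2Q+gRNA, 282 and 276 in SA2Q, 309 and 340.0 in SA2+gRNA, and 319 and 391 in ctrl. The SA1Q pair lay below the ctrl pair but SA1Q+gRNA replicate 1 did not stand apart from SA1+gRNA or SA2+gRNA; its log2 change for SA1Q over ctrl was -0.47 (SE 0.12, adjusted p = 0.0496, edgeR), and -0.32 without ctrl replicate 2 (adjusted p = 0.139). MX1, an antiviral GTPase, had 0.731 and 0.579 CPM in SA1Q and 1.29 and 1.38 CPM in ctrl, and missed the threshold (log2 change -1.02, adjusted p = 0.0512, edgeR). Leaving out 1 SA1Q or ctrl library leaves its group with 1 library. Fewer members, or none, then passed, and the share of all genes called moved too. The log2 changes ran from -1.76 to -0.97 for BST2, -1.18 to -0.75 for IFI35 and -1.25 to -0.64 for IFIT1. For OAS3 they ran from -0.975 to -0.32 and for LGALS3BP from -0.61 to -0.32. Without both libraries that stand apart 7 of 43 passed (16.3%), where 7.32% of all genes did, and BST2 was not among them (-0.96, adjusted p = 0.0683, edgeR).

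**Figure D5:**
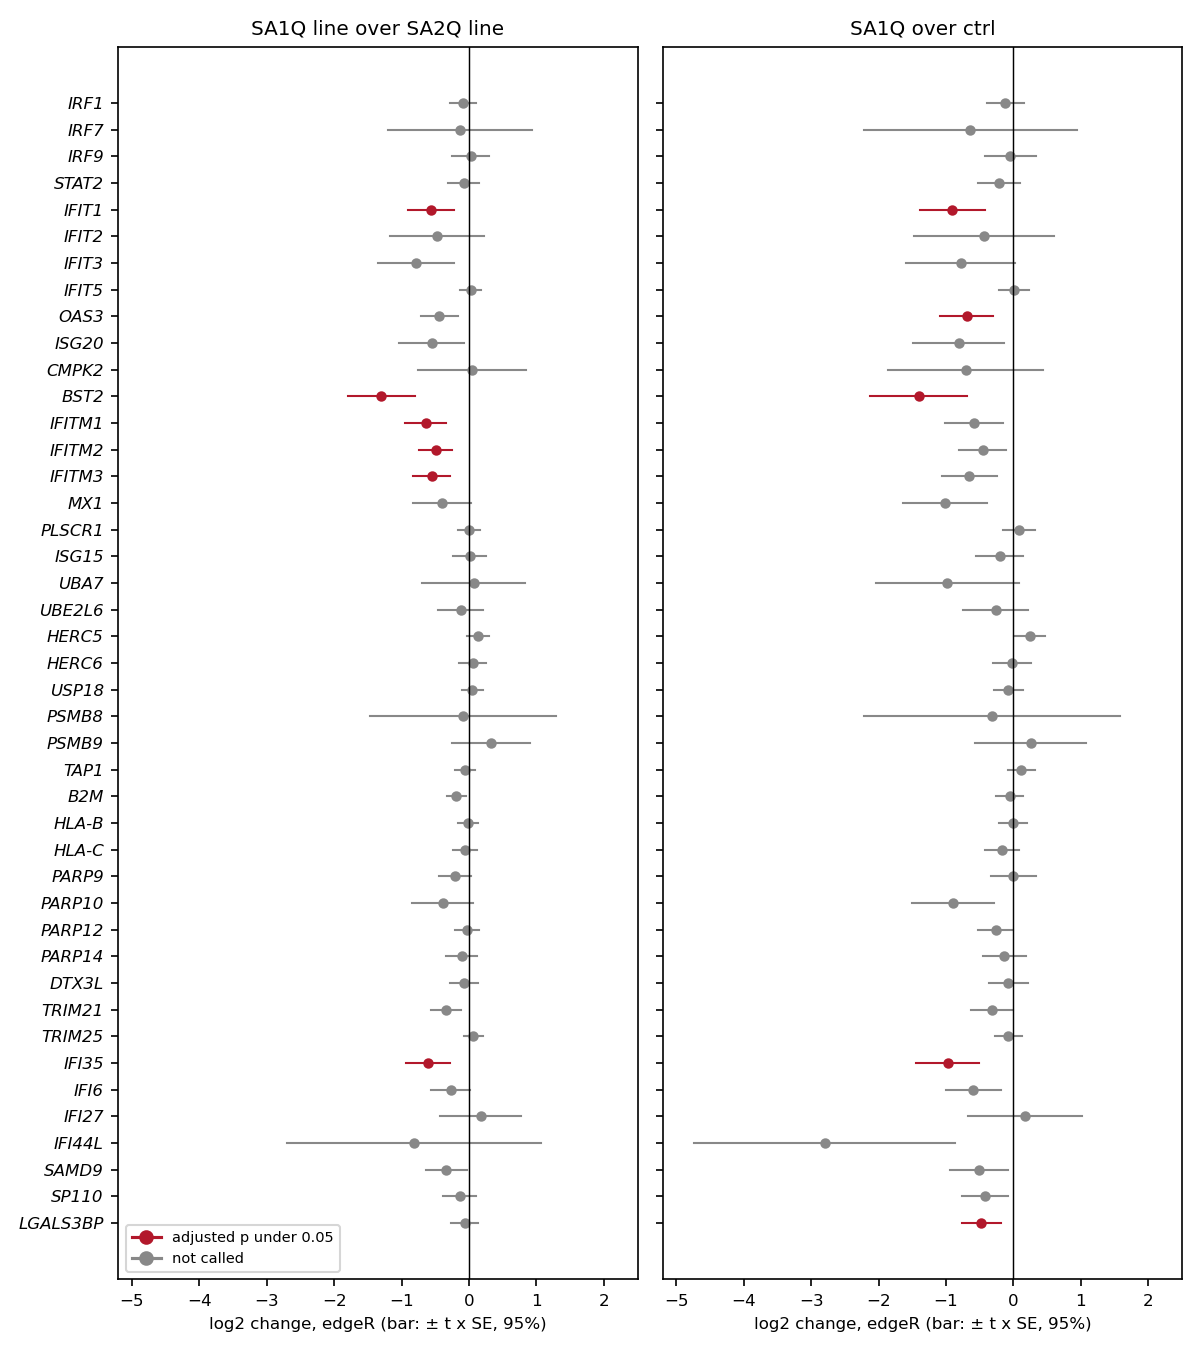
Log2 change of each of the 43 tested genes, for the SA1Q line over the SA2Q line (left) and SA1Q over ctrl (right). Bars are approximate 95% intervals derived from the edgeR F statistic, and red marks an adjusted p under 0.05. All red points lie left of 0, with BST2 at -1.30 and -1.40.

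In SA1Q+gRNA, PARP10 and IFI35 were lower than in ctrl, and no member was higher. The comparison gave 2 of 43 (4.65%), where 1.04% of all genes were called and 0.621% called lower; 36 of 43 were below 0 (49.3% of all genes), the median was -0.26 (-0.15 without SA1Q+gRNA replicate 1), and 17 had an unadjusted p under 0.05 (13.9% of all genes). PARP10, a mono-ADP-ribosyltransferase, had 0.540 and 0.493 CPM in SA1Q+gRNA, 0.694 and 0.708 in SA1Q, 0.746 and 0.710 in SA1+gRNA, 0.590 and 0.640 in SA2Q+gRNA, 0.982 and 1.04 in SA2Q, 0.834 and 0.666 in SA2+gRNA, and 1.19 and 1.42 in ctrl. The ctrl pair was above all other libraries and SA1Q+gRNA below them, at a log2 change of -1.35 (SE 0.27, adjusted p = 0.0267, edgeR). IFI35 was the other call (-0.91, SE 0.20, adjusted p = 0.0397, edgeR), while IFIT1 (-0.82, adjusted p = 0.0656) and BST2 (-1.19, adjusted p = 0.0714) missed the threshold. This comparison shares the ctrl libraries with the one of SA1Q and ctrl. SA1Q+gRNA had a guide and ctrl none named, so the guide and the line cannot be told apart in it. Leaving out 1 SA1Q+gRNA or ctrl library leaves its group with 1 library. The members called then changed with the library, and the share of all genes called moved too. PARP10 had log2 changes from -1.46 to -1.22 and IFI35 from -1.12 to -0.68, and neither passed in every such fit. Without both libraries that stand apart the 2 calls were LGALS3BP and OAS3, where 1.54% of all genes were called.

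SA1Q+gRNA over SA1+gRNA compares the mutant with the wild-type deaminase, both with guide. The groups are separate lines, so the mutation and other differences between the lines cannot be told apart. IFIT1 was the only member called, and it was lower in SA1Q+gRNA, 1 of 43 where 0.962% of all genes were called. It averaged 2.74 ± 0.094 CPM in SA1Q+gRNA and 5.29 ± 0.732 CPM in SA1+gRNA (SD, n = 2 each), a log2 change of -0.94 (SE 0.20, adjusted p = 0.0399, edgeR), and no SA1Q+gRNA library overlapped. IFI35 (-0.67, adjusted p = 0.109) and BST2 (-0.94, adjusted p = 0.132) were not called by edgeR, the median of the 43 was -0.20, and 15 had an unadjusted p under 0.05 (17.4% of all genes). Leaving out 1 of the libraries compared leaves its group with 1 library, and the share of all genes called then moved too. IFIT1 had log2 changes from -1.08 to -0.80 and did not pass in most of these fits. Without SA1Q+gRNA replicate 2, HLA-B was higher, at a log2 change of 0.46. Without both libraries that stand apart the 1 call was LGALS3BP, not IFIT1 (1.32% of all genes called). Whether this change differed from that of SA2Q+gRNA over SA2+gRNA was tested as a contrast chosen after the data were seen, and edgeR called 0 of 16418 genes; the smallest p among members was that of B2M (-0.49, adjusted p = 0.324), and IFIT3 followed (-1.18, adjusted p = 0.452).

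In the SA2 lines and for the guide, edgeR called no member. The comparisons with ctrl share its libraries and gave 0 of 43 each. For SA1+gRNA the median log2 change was -0.13, and 4 members had an unadjusted p under 0.05 (10.7% of all genes, with 0.0426% called). For SA2Q+gRNA the median was -0.11 with 4 such members (10.1% of all genes, 0.067% called), for SA2Q -0.16 with 3 (8.86%, 0.0853% called) and for SA2+gRNA -0.08 with 4 (10.2%, 0.104% called). PARP10 was the member with the smallest p in SA1+gRNA, SA2Q+gRNA and SA2+gRNA, at log2 changes of -0.85, -1.09 and -0.82 (adjusted p = 0.288, 0.147 and 0.266, edgeR). DESeq2, limma-voom and edgeR without a filter also called 0 members in each of these 4. For the guide, SA1Q+gRNA over SA1Q gave 0 of 43 and 0.0% of all genes called, with a median of -0.03 and 3 members at an unadjusted p under 0.05 (12.2% of all genes). SA2Q+gRNA over SA2Q gave 0 of 43 and 0.0%, with a median of 0.05 and 1 such member (1.77%). The difference between these guide effects gave 0 of 43 and 0.0%, with a median of 0.01 and 1 such member (5.66%). DESeq2 and limma-voom called 0 members in all 3. BST2 had a difference of 0.21 on the log2 scale with guide in SA1Q and of -0.24 in SA2Q (SE 0.33 and 0.26; adjusted p = 0.784 and 0.9997, edgeR), which does not show equal levels. The remaining pairs, SA2Q+gRNA over SA2+gRNA (5 at an unadjusted p under 0.05, 7.86% of all genes) and SA1+gRNA over SA2+gRNA (3, 4.79% of all genes), each with a median of -0.02, gave 0 members each by edgeR, DESeq2 and limma-voom, with 0.0122% of all genes called in both. Without SA1Q+gRNA replicate 2, 3 of 44 members were called in SA1Q+gRNA over SA1Q (6.82%), PARP14 and IFIT5 lower and HLA-B higher, which was below the 12.6% of all genes called there. Without both libraries that stand apart, edgeR called 5 of 43 members lower in SA2Q+gRNA than in ctrl (11.6%; LGALS3BP, TRIM25, OAS3, PARP10 and PARP14), where 5.11% of all genes were called. It also called as lower LGALS3BP in SA2Q over ctrl (3.42% of all genes called), OAS3 in SA2+gRNA over ctrl (2.84%) and TRIM25 in SA2Q+gRNA over SA2+gRNA (0.716%), each 1 of 43 members (2.33%).

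The remaining 34 tested members were not called in the edgeR fit to all 14 libraries, and 15 of them were called under at least 1 alternative fit or with libraries left out. Of the transcription factors, STAT2 and IRF1 were the most abundant per length (mean FPKM 3.91 and 3.11) and IRF9 and IRF7 the least (1.94 and 0.0754). The ISG15 pathway, in which UBA7 activates, UBE2L6 carries and HERC5 attaches the ubiquitin-like ISG15, had a median log2 change of 0.05 in the SA1Q line over the SA2Q line, with 1 of 6 below 0. By the ratio of the highest to the lowest library, USP18 varied least of the tested members (1.18, from 30.3 to 35.6 CPM), and PLSCR1, a phospholipid scramblase, followed (1.25, from 18.0 to 22.4 CPM). The antigen-presentation genes, among them PSMB8 and PSMB9 of the immunoproteasome (mean FPKM 0.068 and 0.519), had a median of -0.06. PARP9, DTX3L, PARP12 and PARP14 lay between 10.03 and 23.3 CPM, and PARP9 and DTX3L overlap on opposite strands. The other effectors not called were IFIT2, IFIT3, IFIT5, the exonuclease ISG20 and the nucleotide kinase CMPK2. Among the other induced genes, IFI6, IFI27, SAMD9 and SP110 had 0.375 to 10.5 CPM, IFI27 being the lowest and IFI6 the highest, and HERC6 and TRIM21 spanned 9.59 to 12.8 and 6.80 to 10.3 CPM.

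By position of whole lines, all 4 SA1Q-line libraries lay below the other 10 for 7 of 43 members, a count taken after the values were seen. These were BST2, IFI35, IFIT1, IFIT3, IFITM3, OAS3 and TRIM21, 16.3% of the tested members, where 1.94% of all genes did so. None lay above (1.67% of all genes). For the SA2Q line the counts were 0 below and 0 above (0.286% and 0.426% of all genes). IFIT3, a partner of IFIT1, had 0.592 and 0.673 CPM in SA1Q+gRNA and 0.658 and 0.622 in SA1Q, against 0.699 to 1.40 CPM in the others, and TRIM21, an antibody receptor of the cytosol, had 6.80 to 7.85 CPM against 8.18 to 10.3. By Pearson's r, the members whose log2 CPM followed that of BST2 most closely over the 14 libraries were IFITM3, IFIT1 and IFI35 (r of 0.854, 0.836 and 0.836; Spearman's rho of 0.662, 0.701 and 0.701). By Spearman's rho, IFITM1 and IFITM2 came first (rho of 0.846 and 0.727; r of 0.801 and 0.734). Both are descriptions of libraries that share the lines.

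Other genes of the pathway are set here against the 2.75% of all genes called in the SA1Q line over the SA2Q line. In a list of 40 interferon and signalling genes 19 could be tested, and PTPN6, a phosphatase, was the only one called in the SA1Q line over the SA2Q line, at 5.94 and 9.10 CPM (log2 change -0.61, adjusted p = 0.0019, edgeR); the list's median was -0.04. Among 52 other interferon-induced genes 39 were tested, with a median of -0.06, and TRIM5, a restriction factor of retroviral capsids, was among the 2 called lower (-0.52, adjusted p = 0.0091, edgeR). STING1, the adaptor of the DNA-sensing pathway, was lower too, at 20.4 CPM in the SA1Q line and 27.7 CPM in the SA2Q line (-0.44, adjusted p = 0.0025, edgeR). In SA1Q over ctrl, 2.8% of all genes were called. There PTPN6 was 1 of 19 called (5.26%, log2 change -0.65, adjusted p = 0.0138, edgeR). STING1 was 1 of 7 shared sensors (14.3%, -0.48, adjusted p = 0.0157, edgeR). TRIM5 was 1 of 39 (2.56%, -0.53, adjusted p = 0.0470, edgeR), a share near that of all genes. All were lower. In SA1Q+gRNA over ctrl PTPN6 was the only call of these lists (1 of 19, 5.26%, -0.64, adjusted p = 0.0176, edgeR), where 1.04% of all genes were called.

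Markers of other cells moved with the SA1Q line in part. The summed level of 9 blood-cell markers was 123 to 142 CPM in the SA1Q line and 161 to 182 CPM in the other 10 libraries. LCP1 (110 to 131 CPM against 140 to 163 CPM) and CD68 (10.7 to 12.01 CPM against 13.9 to 21.8 CPM) carried it. Both were lower in the SA1Q line than in the SA2Q line (-0.40, adjusted p = 0.0019, and -0.74, adjusted p = 0.0021, edgeR), 2 of 5 tested markers, while PTPRC, CD3E and HBB stayed at or under 0.406 CPM everywhere. The epithelial keratin gene KRT8 was lower as well (-0.36, adjusted p = 0.0100, edgeR). The 9 fibroblast markers summed to 7.62 to 12.04 CPM in the SA1Q line and 8.72 to 12.8 CPM in the others, and the 6 endothelial markers to 1.26 to 1.92 and 1.27 to 2.03 CPM. In SA1Q over ctrl 1 of 7 tested fibroblast markers was called, COL1A1, at 5.26 and 5.17 CPM in SA1Q and 7.86 and 8.43 CPM in ctrl (-0.64, adjusted p = 0.0234, edgeR). COL6A3 stood at 2.24 CPM in SA1Q+gRNA replicate 1 and 2.53 CPM in ctrl replicate 1, the libraries that stand apart, and at 0.105 to 0.406 CPM elsewhere. Their part in the results was not tested.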

How the data were processed

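Per the file headers, each of the 14 deposited files gave for 46830 RefSeq transcripts a fragment count, whole and without normalization, an FPM, a signal that the authors scaled to the library total, and an FPKM value that the authors scaled also to transcript size. Per the labels' protocols, libraries were stranded, polyadenylated and paired-end. The submitters' processing notes name STAR 2.4.2a, Trim Galore and hg19; the sources used here do not give the counting tool or its use of strand. Library coordinates are on hg19, counted from 1, and promoter windows are on GRCh38.p14; they are not mixed.

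Accessions were named from RefSeq and GENCODE tables (98.6% of 45595), 887 unnamed entries holding 0.81% of counts on average and 2309 entries under 200 nucleotides were left out, and each gene kept the transcript with the highest mean FPM. The library totals given were worked out from the fragment counts and their FPM. The edgeR fit used the summed counts of the tested genes. The count test was edgeR 4.0.16 under R 4.3.3 with TMM scaling, two-sided, in 13 comparisons. The filter, filterByExpr, asked for a CPM equal to 10 fragments at the median library size, in at least 2 libraries. The quasi-likelihood fit covered all 14 libraries, with Benjamini-Hochberg adjustment over 16418 genes. It had 7 residual degrees of freedom and a common coefficient of variation of 8.67%. This test gives no SE. Each edgeR SE is the absolute log2 change over the square root of the F statistic, and intervals use a t value with 7 degrees of freedom. A gene with an adjusted p under 0.05 was called. Levels are TMM-scaled CPM. Alternatives used limma 3.58.1, DESeq2 1.42.0, FPKM on a log2 scale with pseudocounts of 0.1 and 1, a length and GC offset and others. The edgeR fit was tested on simulated counts.

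All 51 members are named; those called in any comparison are given in every library, the others by role, range and count, and of the other lists mainly called genes are named; some results for genes outside the 51 are not reported here. The members and lists were chosen with earlier results of these data known. The design text speaks of 2 biologically independent experiments; p-values measure the spread between these samples. Replicate numbers were checked for pairing: over 21 pairs of groups the correlation of same-numbered deviations ran from -0.144 to 0.444 with a median of -0.019, and 2 were over 0.1, so the numbers were not used as pairs. All counts of SA1+gRNA replicate 2 were even, 100% against 47.7% to 48.7% in the others; counted by pairs its depth is 65.1 M.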

Additional observations from a re-analysis of the deposited data

How the results depend on the processing

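Among 248 values for called members under an alternative, all were below 0, none reversed, and 161 stayed past the threshold; BST2 in the SA1Q line over the SA2Q line passed in 20 of 20, at log2 changes from -1.46 to -0.66. These members were picked as called lower, and the alternatives use the same libraries or most of them, so a kept sign is no separate support. The number of called members moved more than these values. The share of all genes called is given in brackets after most counts. It is not given for the ranges with a replicate left out, where it moved as well. For SA1Q over ctrl (5, 2.8%), it was 8 (2.89%) without a filter on low counts, 9 (7.03%) with DESeq2, 2 (2.19%) with limma-voom, 8 (5.97%) with a length and GC offset and 0 (0.344%) in a fit of only these groups, and 0 to 4 with a replicate left out. For SA1Q+gRNA over ctrl (2, 1.04%), it was 6 (1.24%) without a filter, 7 (3.03%) with DESeq2, 1 (0.834%) with limma-voom, 4 (1.39%) on log2(FPKM + 0.1), 10 (5.79%) with the offset, 0 (0.0191%) in a fit of only these groups, and 0 to 3 with a replicate left out. For SA1Q+gRNA over SA1+gRNA (1, 0.962%), it was 2 (4.13%) with DESeq2, 0 (1.18% and 0.828%) on the FPKM scales with pseudocounts of 0.1 and 1, 2 (3.6%) with the offset, 0 (0.0697%) in a fit of only these groups, and 0 to 6 with a replicate left out. For the SA1Q line over the SA2Q line (6, 2.75%), it was 11 (9.1%) with the offset and 1 to 5 with a replicate left out. For SA1Q+gRNA over SA1Q (0), it was 0 to 3. Of 216 medians of the members under an alternative, 46 moved by more than the replicate spread. On log2(FPKM + 1), which shrinks low genes, BST2 was at -0.68 in SA1Q over ctrl and -0.66 in the SA1Q line over the SA2Q line. The cause of the other moves was not tested.

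Without the 2 libraries that stand apart, the SA1Q line over the SA2Q line gave 10 members, SA2Q over ctrl 1 (LGALS3BP), SA2Q+gRNA over ctrl 5 (LGALS3BP, TRIM25, OAS3, PARP10 and PARP14), SA2+gRNA over ctrl 1 (OAS3) and SA2Q+gRNA over SA2+gRNA 1 (TRIM25), and TRIM25 was also the 1 call there in a fit of only these groups. Leaving an arm with 1 library assumes that it varies like the other groups. With the replicate block, 3 members were called in SA1Q over ctrl (1.85% of all genes called) and 1 in SA1Q+gRNA over ctrl (0.761%). In the SA1Q line over the SA2Q line 5 were called (1.85%). The shared numbers were not a pairing of the samples. The offset turned the split of all called genes from 175 higher and 285 lower to 672 and 308 in SA1Q over ctrl, from 69 and 102 to 570 and 381 in SA1Q+gRNA over ctrl, and from 169 and 283 to 867 and 627 in the SA1Q line over the SA2Q line; 35, 36 and 31 of the 43 members were then below 0. With 2 libraries per group, genes of few fragments, such as IFI44L (1 to 23 per library), were measured with little precision.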
